A study of Mus musculus with 4 samples.

Results

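Imprinted genes were followed in N31 NPCs, a mouse neural progenitor line obtained by differentiating iPSCs, with and without knockdown of Srf, on soft and stiff matrices. The members were chosen by symbol from a list of 41 mouse imprinted genes in 17 imprinted clusters, and 39 of them were among the 21862 genes listed once in the expression tables. The long non-coding RNAs H19 and Meg3 had no row and are not analysed here. RNA was sequenced from N31 cells (control) on collagen-coated matrices of 0.5 kPa and 12 kPa, and from N31 cells expressing the short hairpin shSrf#1 against Srf (shSrf) on the same matrices, with 1 library for each of the 4 conditions. All cells were cultured in NPC medium lacking EGF and bFGF, and all carry Dox-inducible Oct4, Klf4, c-Myc and Sox2 transgenes together with an rtTA transgene. N31 is a single line that passed through reprogramming before it was differentiated again. The shSrf retrovirus was selected with puromycin, and the methods do not state whether the control cells carried a vector, so that the hairpin, the vector and the history of the infected population cannot be told apart.

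Imprinted genes are transcribed mainly or only from the copy inherited from a given parent. They lie in clusters that are governed by imprinting control regions, whose DNA methylation is set in the germ line and is then kept through cell division. Several paternally expressed members, such as Igf2, Mest, Dlk1 and Peg10, are known to promote growth of the embryo or placenta, several maternally expressed members, such as Igf2r, Grb10 and Cdkn1c, are known to restrain it, and others, such as Ndn, Magel2 and Ube3a, are known for their roles in neurons. FPKM adds the reads from both parental copies, so the imprint itself was not measured.

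The deposited unit is FPKM, a read number scaled to transcript length and to the mapped reads of its library, so levels can be compared between genes. Without replicates no p-value was computed, and each difference below is a difference between single libraries. Depth, estimated from steps of whole reads among low values, was between 24100000 and 62300000 reads per library, and for a 2000-nucleotide transcript 3 reads were worth an FPKM of 0.0268 to 0.0691. Counting errors given below rest on these estimated reads and cover neither culture nor library preparation. The targeted gene Srf was at 34.4 and 35.6 in control and at 16.2 and 17.4 in shSrf (FPKM at 0.5 and 12 kPa). Of 16 NPC markers, between 9 and 10 were above an FPKM of 2 in a library, with Vim and Cdh2 among them, while the NPC genes Sox1, Hes5, Olig2 and Nr2e1 were listed at 0 in every library. Of the 8 above 2 in every library, 2 were lower in shSrf by more than 2-fold at both stiffnesses and 1 was higher. Nes (51.6 and 36.1 against 16.4 and 15.5) and Slc1a3 (27.7 and 36.7 against 9.99 and 13.2) were lower. Sox2 (4.29 and 5.49 against 19.1 and 20.4) was higher. Of all such genes, 1.71% were lower and 1.74% higher. Of 12 mesenchymal markers, 11 or 12 were above 2, and their summed FPKM was between 4132 and 4703. No trophoblast marker of 9 and at most 1 pluripotency marker of 8 was above 2, and 1 astrocyte marker of 5 was.

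Of the 39 listed imprinted genes, 20 exceeded an FPKM of 2 in every library, the minimum used in the study, which is 51.3% of them against 48.0% of all genes. A further 3 were above 2 in some libraries, and 16 were above 2 in none. Members above the minimum came from 13 of the 17 clusters. Mest, Gnas, Peg10 and Cd81 were above an FPKM of 200 in every library. Mest, a hydrolase-fold protein of the mesoderm, stood at the 99.6th percentile of all genes in control at 0.5 kPa, and Gnas, which encodes the stimulatory G protein alpha subunit, at the 99.4th. At the other end, 14 members were under an FPKM of 1 in every library.

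**Figure D1:**
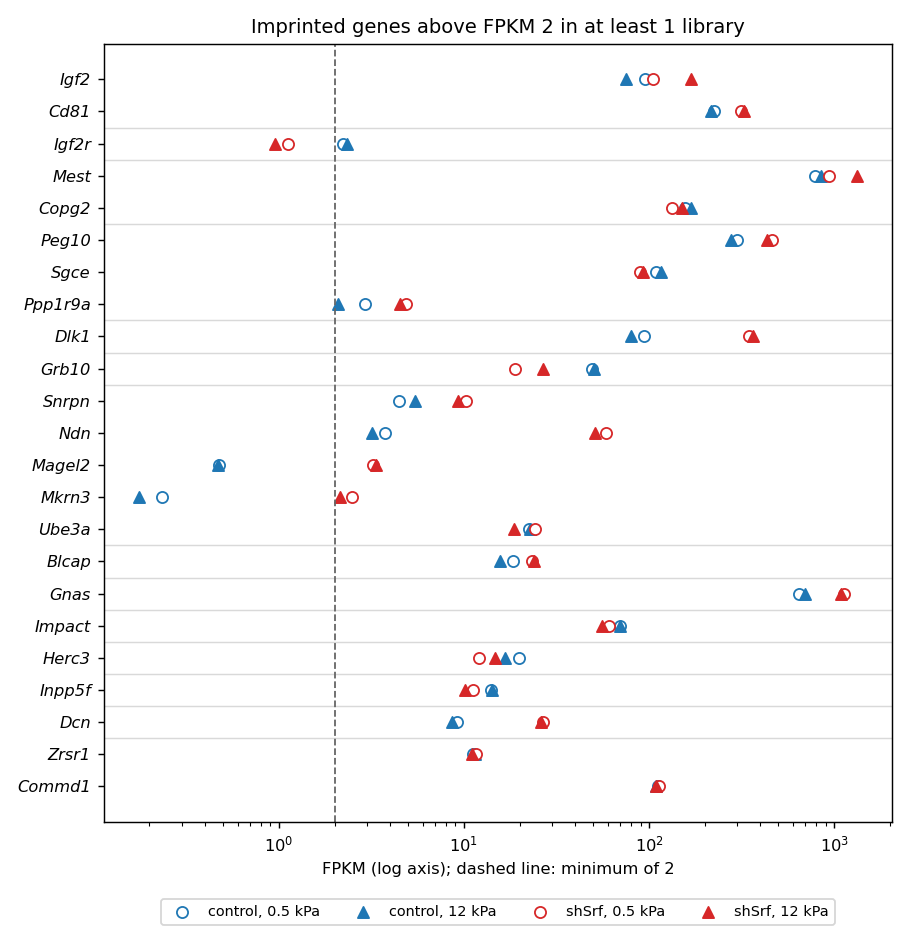
FPKM on a log axis of the 23 imprinted genes above an FPKM of 2 in at least 1 library, with 1 symbol for each library (blue for control, red for shSrf, open circles for 0.5 kPa, triangles for 12 kPa) and grey lines between clusters. Ndn, Magel2, Mkrn3, Dlk1 and Dcn lie to the right in shSrf, and Grb10 and Igf2r to the left.

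Between shSrf and control, 3 of the 20 members above the minimum were higher in shSrf by more than 2-fold at both stiffnesses, namely Ndn, Dlk1 and Dcn, and no member was lower by more than 2-fold at both. Over all genes above the minimum, 1.74% were higher and 1.71% were lower by this measure. With a threshold of 1.5-fold, 7 members were higher (Peg10, Ppp1r9a, Snrpn and Gnas in addition) and 1, Grb10, was lower, where 6.63% and 6.17% of all genes were. The log2 ratio of Gnas at 12 kPa was 0.37 after centring within bins of transcript GC content, which is within 1.5-fold. Both shSrf libraries lay above both control libraries for 11 members and below them for 6, and this was so for 39.8% and 37.6% of all genes, so that such a separation was common among all genes. The log2 ratios of the 20 members had medians of 0.20 on the soft and 0.60 on the stiff matrix, against 0.0106 and 0.00981 over all 10489 genes above the minimum. The median at 12 kPa depended on which members were included, and was 0.00275 when an FPKM above 5 was required. The control libraries, the hairpin and the cell population differ together in this comparison, and in bulk RNA a larger share of cells expressing a gene and more RNA of it per cell cannot be told apart.

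**Figure D2:**
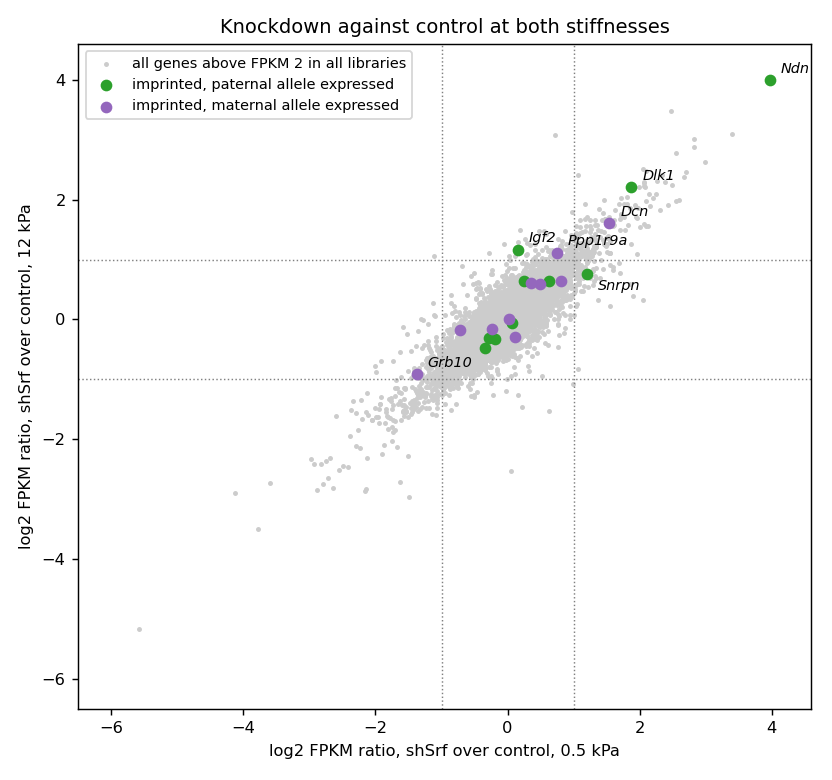
Log2 FPKM ratio of shSrf over control at 0.5 kPa (x axis) and at 12 kPa (y axis) for all genes above an FPKM of 2 in all libraries (grey) and for the 20 imprinted genes among them, coloured by the allele usually expressed. Dotted lines mark 2-fold, and Ndn sits farthest to the upper right, at 3.97 and 4.0.

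Among the members, genes of the Snrpn-Ube3a cluster, the mouse counterpart of the region affected in Prader-Willi and Angelman syndromes, differed most. Its paternally expressed genes Ndn, Magel2, Mkrn3 and Snrpn were all higher in shSrf, and its maternally expressed gene Ube3a, which is imprinted in neurons, was not. Ndn (chromosome 7, 62348277 to 62349928) encodes necdin, a MAGE family protein known for restraining proliferation in neurons. Its FPKM was 3.74 in control at 0.5 kPa, 3.20 in control at 12 kPa, 58.6 in shSrf at 0.5 kPa and 51.3 in shSrf at 12 kPa. The populations did not overlap, with a 15.6-fold higher level in shSrf at 0.5 kPa and a 16.0-fold higher level at 12 kPa. Ndn had the highest ratio at both stiffnesses (rank 1) of the 10489 genes above the minimum in every library. This rank leaves out genes under the minimum in control, such as Peg12 below, whose log2 ratio at 12 kPa was 4.33. The log2 ratios of Ndn were 3.97 and 4.0, with counting errors of 0.12 and 0.14.

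Magel2 and Mkrn3 were above an FPKM of 2 in both shSrf libraries and in neither control library, a pattern that 1.13% of all 21862 genes had and 2 of the 39 listed members. Magel2 (chromosome 7, 62376979 to 62381640), a MAGE family protein that works with ubiquitin ligases in endosomal sorting, had an FPKM of 0.473 and 0.468 in control and 3.23 and 3.33 in shSrf, in the order 0.5 and 12 kPa. It was thus low but detected in control, on an estimated 61.4 and 50.3 reads, and 6.83-fold and 7.12-fold higher in shSrf. Mkrn3 (chromosome 7, 62417593 to 62420153), a makorin ring finger protein known for its part in the timing of puberty, had an FPKM of 0.234 and 0.177 in control and 2.49 and 2.14 in shSrf. Its log2 ratios were 3.41 and 3.60, with wider counting errors of 0.37 and 0.46 since the control values rest on an estimated 16.1 and 10.1 reads.

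Ndn, Magel2 and Mkrn3 are adjacent, and the bases before their starts are shown because the genes differ together between the populations. RefSeq starts on GRCm38 matched 33 of the 41 members. Each line gives the 250 bases upstream of the start, from 5′ to 3′ on the strand of the gene, with the palindrome CGCATGCG, which also forms the core of sites for NRF1, and the motif CCGGAAGT, a form of the site bound by ETS factors, in capitals wherever they occur on either strand. Both motifs were chosen after the sequences had been seen, and they do not overlap each other here.
Ndn, chr7:62348027-62348276, plus strand: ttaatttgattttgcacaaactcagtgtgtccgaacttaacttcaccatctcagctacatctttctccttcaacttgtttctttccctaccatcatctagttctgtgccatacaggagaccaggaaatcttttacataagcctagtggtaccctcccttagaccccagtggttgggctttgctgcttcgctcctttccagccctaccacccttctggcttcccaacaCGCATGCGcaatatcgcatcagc
Magel2, chr7:62376729-62376978, plus strand: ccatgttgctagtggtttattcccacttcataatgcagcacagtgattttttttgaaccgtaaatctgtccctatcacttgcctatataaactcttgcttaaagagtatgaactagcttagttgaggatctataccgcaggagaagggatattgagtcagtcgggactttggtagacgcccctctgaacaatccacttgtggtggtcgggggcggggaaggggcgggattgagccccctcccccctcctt
Mkrn3, chr7:62420154-62420403, minus strand: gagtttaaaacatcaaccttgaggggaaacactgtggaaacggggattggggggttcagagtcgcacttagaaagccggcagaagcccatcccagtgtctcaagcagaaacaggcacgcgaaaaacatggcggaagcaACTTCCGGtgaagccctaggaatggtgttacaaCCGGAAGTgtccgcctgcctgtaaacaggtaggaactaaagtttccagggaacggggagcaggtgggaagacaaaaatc
The Ndn window holds CGCATGCG close to the transcription start, which 1.55% of 32851 upstream windows of the same length hold, and among members windows of Snrpn, Nnat and Commd1 hold it too. The Mkrn3 window holds CCGGAAGT once on each strand, while 2.88% of all windows hold it at least once on either strand and no other matched member's window does. The Magel2 window holds neither. A CArG box, the site Srf binds, occurred in 1.47% of all windows and, among members, in a window of Igf2 and of Meg3, and in none of the 3 shown. The windows of Ndn, Magel2 and Mkrn3 hold 5, 7 and 10 CpG dinucleotides, where the median over all windows is 6. These matches describe letters only.

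Snrpn (chromosome 7, 59982495 to 60450177) encodes a small nuclear ribonucleoprotein of the spliceosome and lies between Ube3a and Ndn, with its centre 2132.8 kb from that of Ndn. Its FPKM was 4.45 and 5.44 in control and 10.3 and 9.25 in shSrf, a log2 ratio of 1.21 on the soft and 0.77 on the stiff matrix. Snurf, which is no member but shares transcripts with Snrpn, had 15.6 and 15.7 in control and 55.0 and 46.7 in shSrf. Reads of the shared transcript can be split between both symbols, so their separate levels are uncertain, but each was higher in shSrf. Peg12, a paternally expressed intronless gene 114.1 kb beyond Ndn, had 0.394 and 0.255 in control and 6.10 and 5.12 in shSrf, with log2 ratios of 3.95 and 4.33. Ube3a (chromosome 7, 59228750 to 59310837), a ubiquitin ligase, had 22.5 and 22.8 in control and 24.2 and 18.6 in shSrf, with log2 ratios of 0.11 and -0.30, so that the libraries overlapped. After centring on GC content these ratios were 0.25 and -0.04. Atp10a, a phospholipid flippase beyond Ube3a, had 13.5 and 12.99 in control and 6.39 and 6.69 in shSrf. All 6 genes named from Snurf to Peg12 were thus higher in shSrf at both stiffnesses, while Ube3a and Atp10a beyond them were not. Of 7 neuron markers, 5 were above an FPKM of 2 in each library, and their summed FPKM was 59.4 and 62.8 in control and 125 and 120 in shSrf, owing to Stmn2 (19.1 and 18.7 against 64.6 and 61.3) and Map2 (29.9 and 35.1 against 51.7 and 50.05). The other 3 did not share this, with log2 ratios of -0.52 and -0.60 for Snap25, -0.09 and -0.36 for Syt1 and 0.02 and 0.58 for Tubb3, and the median of the 5 was 0.02 on the soft and 0.51 on the stiff matrix. Dcx was between 0.00467 and 0.0125, Rbfox3 was listed at 0 in every library, and the part of neuron-like cells in the Ndn result was not tested.

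**Figure D3:**
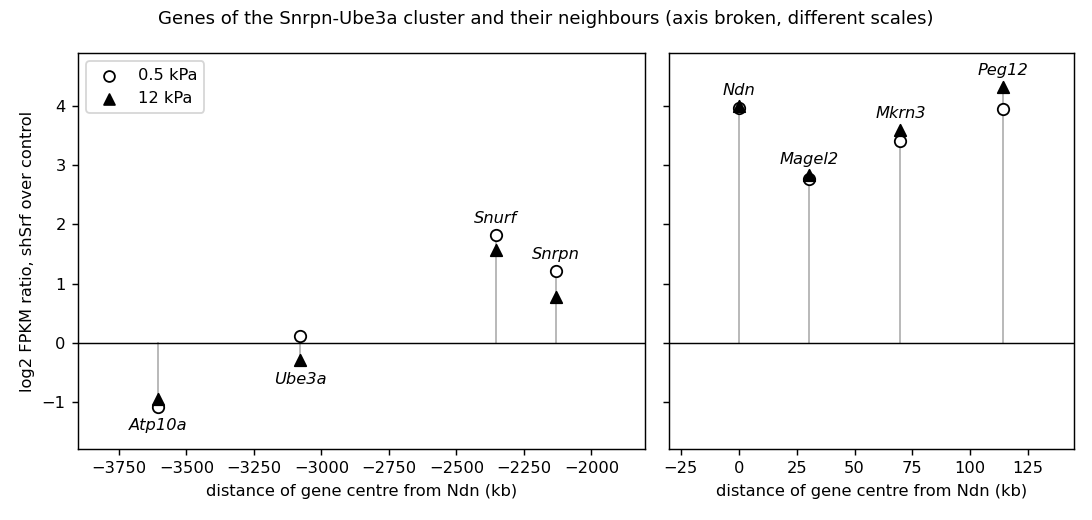
Log2 FPKM ratio of shSrf over control (y axis) of the genes of the Snrpn-Ube3a cluster and of their listed neighbours against the distance of the gene centre from that of Ndn in kb (x axis, broken, with a different scale in each panel), with open circles for 0.5 kPa and triangles for 12 kPa. The 4 genes on the right lie between 2.77 and 4.33, Snurf and Snrpn lie lower, and Ube3a and Atp10a lie near or under 0.

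In the Dlk1-Dio3 cluster on chromosome 12, Dlk1 (109452485 to 109463336), a transmembrane and secreted protein related to Notch ligands that marks progenitor cells, was higher in shSrf. Its FPKM was 94.2 and 79.5 in control and 346 and 366 in shSrf, in the order 0.5 and 12 kPa, which is 3.67-fold and 4.61-fold higher, with log2 ratios of 1.88 and 2.2. Counting error was 0.0142 and 0.0163, small beside these ratios. By its ratio Dlk1 ranked 42 of 10489 genes at 0.5 kPa and 23 at 12 kPa. Rtl1, a retrotransposon-derived placental gene of the same cluster and also paternally expressed, was near the detection limit, with an FPKM of 0.0279 and 0.0269 in control and 0.0865 and 0.0547 in shSrf, on an estimated 5.0, 4.0, 24.0 and 21.0 reads. Its log2 ratios of 1.63 and 1.02 carry counting errors of 0.71 and 0.79. Dio3, the deiodinase that inactivates thyroid hormone, was listed at 0 in both control libraries and at no more than 0.0129 in shSrf. Among 19 genes above the minimum within 1 Mb of the cluster that are not members, the median was 0.06 on the soft and 0.14 on the stiff matrix (log2), and none was past 2-fold at both stiffnesses. Over all genes above the minimum 1.74% were higher and 1.71% lower by this measure, so that count does not set the neighbours apart. Begain, which is also reported to be imprinted, had the highest ratios of the 19 neighbours, with log2 ratios of 0.95 and 1.14. Its FPKM was 3.11 and 3.02 in control and 6.03 and 6.67 in shSrf.

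On distal chromosome 7, Igf2 (142650768 to 142666816), the fetal growth factor, was abundant and differed between populations mainly on the stiff matrix. Its FPKM was 94.9 and 75.3 in control and 106 and 169 in shSrf, so that the ratio to control was 1.11-fold at 0.5 kPa and 2.25-fold at 12 kPa. After centring within bins of transcript GC content the log2 ratio at 0.5 kPa was -0.04 and that at 12 kPa was 0.94. Cd81, a tetraspanin of the adjoining Kcnq1 cluster, had 225 and 216 in control and 315 and 325 in shSrf. All other listed members of the Kcnq1 cluster were under an FPKM of 1 in every library, and Cdkn1c, Kcnq1 and Ascl2 were at or near the detection limit. Cdkn1c, a Cdk inhibitor, was listed at 0 in both libraries at 0.5 kPa and had at most an estimated 1.02 reads. Kcnq1, a potassium channel, had at most 4.0 and Ascl2, a trophoblast transcription factor, at most 4.05 estimated reads. Phlda2, a placental growth inhibitor, ranged from an FPKM of 0.196 to 0.642, on an estimated 3.17 to 16.1 reads. Slc22a18, a transporter, ranged from 0.104 to 0.242, on an estimated 4.09 to 20.4 reads. The log2 ratios of Phlda2 at 0.5 and 12 kPa, 1.71 and -0.26, had opposite signs and counting intervals (95%) from -0.02 to 3.45 and from -1.51 to 1.00, so no difference was detectable at this depth.

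Igf2r (chromosome 17, 12682406 to 12769706), the receptor that carries Igf2 to lysosomes and so removes it, was the member above an FPKM of 2 in both control libraries and in neither shSrf library, a pattern that 0.741% of all genes had. Its FPKM was 2.21 and 2.34 in control and 1.12 and 0.958 in shSrf, so the pattern rests on values close to the minimum. The log2 ratios were -0.98 and -1.29, on between 439 and 558 estimated reads. Of the other genes of the IGF axis, 11 of 16 were above the minimum, and among these 0 were higher and 1, Igfbp3, was lower by more than 2-fold at both stiffnesses. The shares over all genes were 1.74% higher and 1.71% lower. The minimum left out Igf1, with an FPKM of 0.961 and 1.07 in control and 2.72 and 4.39 in shSrf. It also left out Igfbp5, with 5.46 and 4.44 in control and 1.65 and 1.91 in shSrf. Igfbp3, a carrier of IGFs in plasma and tissue, had an FPKM of 216 and 194 in control and 57.1 and 78.9 in shSrf. Igfbp7, a secreted IGF-binding protein, had 38.7 and 36.1 in control and 14.5 and 19.8 in shSrf. Igfbp6, which prefers Igf2, had the highest ratios of the 11, with 58.4 and 49.8 in control and 92.5 and 108 in shSrf. Igf1r, the signalling receptor for Igf1 and Igf2, had 17.0 and 15.8 in control and 6.50 and 11.7 in shSrf. On the log2 scale the median of the 11 genes was -0.28 on the soft and -0.09 on the stiff matrix.

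In the clusters on proximal chromosome 6, the paternally expressed growth genes Mest and Peg10 were higher in shSrf, and their neighbours Copg2 and Sgce were lower. Mest (30733506 to 30748466) was at an FPKM of 787 and 852 in control and 934 and 1323 in shSrf, with log2 ratios of 0.25 and 0.64. Copg2 (30747554 to 30896815), a subunit of the COPI vesicle coat, had 156 and 168 in control and 132 and 150.0 in shSrf, and its log2 ratio at 12 kPa of -0.16 was 0.03 after centring on GC content. The 3′ ends of both genes overlap by 913 nucleotides on the annotation, and although the libraries were made with a stranded kit, the strand setting of the counting is not given in the sources used here, so reads there could fall to either.

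Peg10 (4747306 to 4760517), a retrotransposon-derived gene needed in the placenta, and Sgce (4674350 to 4747204), epsilon-sarcoglycan, begin head to head with 101 bases between them, and both are paternally expressed. Peg10 had an FPKM of 298 and 279 in control and 462 and 433 in shSrf, 1.55-fold higher at both stiffnesses. Sgce had 109 and 116 in control and 89.1 and 93.1 in shSrf, with log2 ratios of -0.29 and -0.31. The populations did not overlap for either gene, and this pair with a common upstream region thus differed in opposite directions. Ppp1r9a, which encodes the actin-binding protein neurabin, had 2.92 and 2.09 in control and 4.89 and 4.54 in shSrf. Asb4 was low in every library, between an FPKM of 0.0269 and 0.0780. Calcr, the receptor for calcitonin, had 0.111 and 0.0250 in control and 0.120 and 0.222 in shSrf. Its log2 ratio was 0.12 at 0.5 kPa and 3.15 at 12 kPa, the latter with a counting interval from 1.18 to 5.13 since the control value rests on an estimated 2.14 reads. Pon2, a paraoxonase of this region, was lower in shSrf, with 37.4 and 39.9 in control and 15.9 and 17.0 in shSrf.

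In the Peg3 cluster at the other end of chromosome 7, no member was above the minimum. Peg3 (6703892 to 6730462), a zinc finger protein, had an FPKM of 0.243 and 0.336 in control and 0.666 and 1.13 in shSrf. These are low levels but rest on between 60.0 and 598 estimated reads, and the log2 ratios of 1.46 and 1.75 have counting intervals from 1.05 to 1.86 and from 1.39 to 2.11. Usp29, a deubiquitinase-like gene that starts 96 bases from Peg3, had at most 8.67 estimated reads, and Zim1, a maternally expressed zinc finger gene, was listed at 0 in 3 libraries. Plagl1 (chromosome 10, 13090832 to 13131694), a zinc finger factor known to regulate other imprinted genes, was likewise low and had 0.0809 and 0.140 in control and 0.481 and 0.532 in shSrf. Its log2 ratios were 2.57 and 1.92, with counting errors of 0.44 and 0.37.

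Among the genes in clusters of their own, Dcn and Gnas were higher and Grb10 was lower in shSrf. Dcn (chromosome 10, 97479500 to 97518163) encodes decorin, a small proteoglycan of collagen matrix that is imprinted in the placenta. It had an FPKM of 9.22 and 8.62 in control and 26.9 and 26.2 in shSrf, 2.91-fold and 3.04-fold higher. Of 10 mesenchymal markers above the minimum, 1, Postn, was lower and 0 were higher past 2-fold at both stiffnesses, where 1.71% and 1.74% of all genes were. The medians were 0.02 and 0.20 on the log2 scale. Postn was at 188 and 259 in control and 30.2 and 36.8 in shSrf. Lum, another small proteoglycan but under the minimum in control, was at 1.36 and 1.22 in control and 3.28 and 3.38 in shSrf. The part of these markers in the Dcn result was not tested. Gnas (chromosome 2, 174284320 to 174346744) had 648 and 693 in control and 1134 and 1086 in shSrf, with log2 ratios after centring on GC content of 0.67 and 0.37. Gnas holds several promoters with different imprints that the value per gene does not separate. Grb10 (chromosome 11, 11930499 to 12037428), an adaptor that restrains insulin and IGF receptor signalling, had 49.1 and 50.7 in control and 18.9 and 26.9 in shSrf. This is 2.59-fold lower at 0.5 kPa and 1.89-fold lower at 12 kPa, so Grb10 passed 2-fold on the soft matrix only. Rasgrf1, a Ras exchange factor of neurons, was listed at 0 in 3 libraries.

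At 3 loci a paternally expressed gene without introns or with short introns lies inside a host gene. The nested gene was within 2-fold of control at each locus at both stiffnesses. Most genes above the minimum were as well, with only 1.74% higher and 1.71% lower past 2-fold at both stiffnesses. This count therefore does not set the nested genes apart. Nnat, a small membrane protein of the developing brain, was between an FPKM of 0.655 and 0.884 and lies within Blcap, which had 18.4 and 15.6 in control and 23.5 and 24.0 in shSrf. Nap1l5 had 1.46 and 1.55 in control and 0.968 and 0.877 in shSrf, and its host Herc3, a ubiquitin ligase, had 19.8 and 16.6 in control and 12.0 and 14.7 in shSrf, so both were lower in shSrf. After centring on GC content the log2 ratios of Herc3 to control were -0.59 at 0.5 kPa and -0.01 at 12 kPa. Zrsr1, a splicing factor gene, had 11.2 and 11.4 in control and 11.6 and 11.0 in shSrf. Its host Commd1, a regulator of copper and NF-kappaB, had 112 and 108 in control and 114 and 109 in shSrf, with log2 ratios to control between -0.06 and 0.06 for both genes. After centring on GC content these ratios were 0.21 and 0.19 for Zrsr1 and 0.17 and 0.17 for Commd1. Inpp5f, an inositol phosphatase, had 14.1 and 14.1 in control and 11.1 and 10.2 in shSrf, and Impact, a regulator of translation under stress, had 69.6 and 69.5 in control and 61.1 and 55.6 in shSrf. Their log2 ratios after centring on GC content were -0.26 and -0.36 for Inpp5f and -0.01 and -0.08 for Impact.

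Over all genes above the minimum, 51% were higher in shSrf at 0.5 kPa and 50.9% at 12 kPa, by any amount. Of 10 paternally expressed members above the minimum, 7 were higher in shSrf at 0.5 kPa and 6 at 12 kPa, with median log2 ratios of 0.20 and 0.64. Of 10 maternally expressed members, likewise 7 and 6 were higher, with medians of 0.23 and 0.30. Members were grouped by the allele usually expressed, which can differ between tissues and was not measured in these cells. A set of 14 members is known as the imprinted gene network, in which expression is correlated across tissues, and 8 of these were above the minimum (Igf2, Mest, Sgce, Dlk1, Grb10, Ndn, Gnas and Dcn). At each stiffness 6 of the 8 were higher in shSrf, with medians of 0.53 and 0.91, and among the 12 other members 8 were higher at 0.5 kPa and 6 at 12 kPa, with medians of 0.08 and -0.03. These counts are a description of few genes.

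Stiffness was compared within each population with the threshold of 1.1-fold used in the study. In control, 6 of 20 members were lower at 12 kPa than at 0.5 kPa (Igf2, Ppp1r9a, Dlk1, Ndn, Blcap and Herc3) and 1 was higher (Snrpn), where 16.9% and 17.9% of all genes were. In shSrf, 3 were lower (Snrpn, Ndn and Ube3a) and 5 were higher (Igf2, Mest, Copg2, Grb10 and Herc3), where 13.0% and 17.6% of all genes were. The median log2 ratio of the 20 members was -0.02 in control and -0.05 in shSrf, against 0.00305 and 0.00640 over all genes. Ndn was lower at 12 kPa past 1.1-fold in both populations, and no member was higher in both, where 3.24% and 5.10% of all genes were. In control the Ndn ratio of -0.23 has a counting interval from -0.57 to 0.12. Igf2 was 0.793 times its soft-matrix level on the stiff matrix in control and 1.60 times in shSrf, which are log2 ratios of -0.33 and 0.68. Igf2, Snrpn and Herc3 were past 1.1-fold in opposite directions in the populations, as were 6.01% of all genes. Snurf, which shares transcripts with Snrpn, was within 1.1-fold in control (0.01) and lower at 12 kPa in shSrf (-0.24). After centring on GC content Snrpn was within 1.1-fold in shSrf (-0.12) and Gnas was past it in opposite directions (0.14 in control and -0.14 in shSrf). With a threshold of 1.2-fold Igf2 was the member left, and the share of all genes at 1.2-fold was not computed. Mest was within 1.1-fold in control (0.11) and 1.42-fold higher at 12 kPa in shSrf, and Grb10 was at 1.03-fold in control and 1.42-fold in shSrf. These differences between single libraries were smaller than those between the populations for Ndn, Dlk1 and Dcn.

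**Figure D4:**
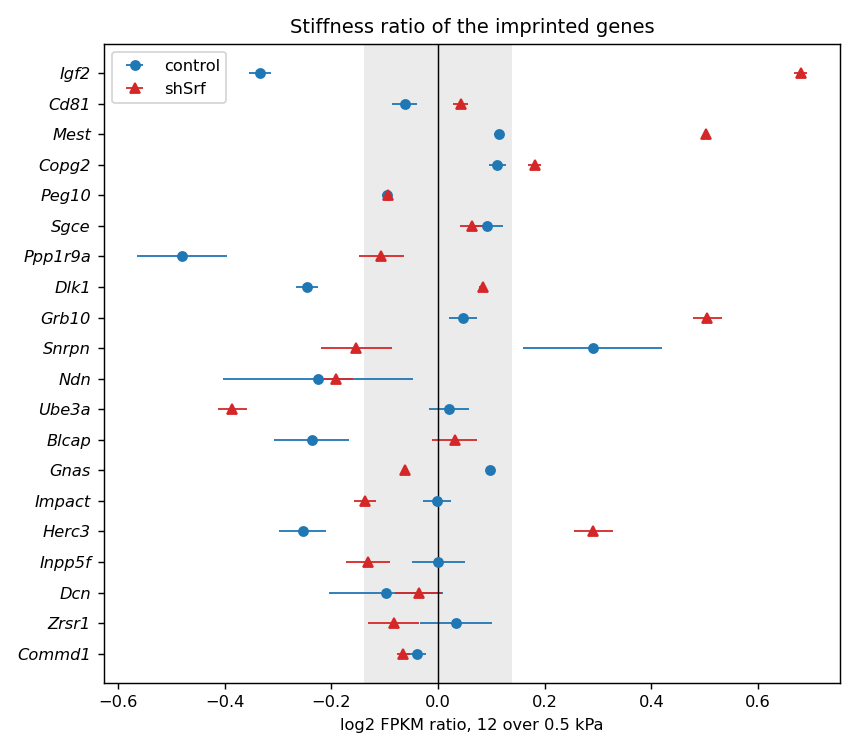
Log2 FPKM ratio of 12 over 0.5 kPa (x axis) of the 20 imprinted genes above the minimum, in control (blue circles) and in shSrf (red triangles), where bars are the standard error from counting alone and the grey band spans 1.1-fold. Igf2 lies at -0.33 in control and 0.68 in shSrf, and Herc3 and Snrpn also lie on opposite sides of the band.

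Of 46 further genes reported to be imprinted, 40 were listed and 22 were above the minimum. Between shSrf and control 2 of these were higher (Dlx5 and Adam23) and 3 were lower (Sfmbt2, Ano1 and Pon2) by more than 2-fold at both stiffnesses. The shares over all genes above the minimum were 1.74% higher and 1.71% lower. The median log2 ratio of the 22 genes was -0.07 on the soft and 0.06 on the stiff matrix. Sfmbt2, a Polycomb-related gene that is imprinted in the placenta, had an FPKM of 10.1 and 9.49 in control and 2.33 and 3.13 in shSrf. Ano1, a chloride channel, had 14.01 and 9.81 in control and 3.67 and 3.71 in shSrf. Dlx5, a homeobox gene, had 2.30 and 2.95 in control and 7.88 and 8.29 in shSrf. Of 19 genes for keeping or setting imprints, 16 were above the minimum, and 0 of them were past 2-fold at both stiffnesses in either direction. With shares of 1.74% and 1.71% over all genes, a count of 0 among 16 does not set this list apart. Dnmt1 and Uhrf1 are given for their role and were chosen after their values had been seen. Dnmt1, the maintenance DNA methyltransferase, had 42.8 and 42.1 in control and 40.4 and 42.4 in shSrf. Uhrf1, which brings Dnmt1 to replicating DNA, had 91.1 and 86.9 in control and 83.6 and 82.2 in shSrf. Zfp57, a zinc finger protein that protects methylation at imprinting control regions, had 61.9 and 66.3 in control and 39.1 and 45.3 in shSrf, with log2 ratios of -0.66 and -0.55, and had the lowest ratio at 0.5 kPa of the 16 above the minimum. Ehmt2, a histone H3 lysine methyltransferase, had the highest ratio of the 16 at both stiffnesses, with 74.4 and 74.9 in control and 104 and 112 in shSrf.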

How the data were processed

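Single-end RNA-seq reads from 4 libraries, 1 for each condition, were processed by the authors. Per the submitters' processing notes and the methods, they trimmed reads with cutadapt 1.9.1, mapped them to mm10 with TopHat2 2.1.0 and Bowtie2 2.2.8 and the GENCODE version M14 annotation, kept reads with MAPQ of 20 or more and computed expression with Cufflinks 2.2.1. The deposited values are FPKM, used here without rescaling. Of 21997 rows, 135 of 63 repeated symbols were left out. The 10489 genes above an FPKM of 2 in each library were compared as log2 ratios without a pseudocount, with 1.1-fold for stiffness, as in the methods, and 2-fold for knockdown. With 1 library for each condition no test was run.

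The members and lists (NPC, mesenchymal, trophoblast, pluripotency, neuron and astrocyte markers, further imprinted genes, imprint maintenance and IGF axis genes) were chosen with earlier results of these data known. All members are accounted for, with every library given for those above 2 in at least 1, and of the last 3 lists at most 3 of the largest ratios in each direction above the minimum. Igf1 and Igfbp5, under the minimum in control and in shSrf respectively, were added after the values were seen. Genes within 1 Mb, the motifs and the marker genes given beside a result were chosen after the values were seen. Depth came from whole-read steps among values under 0.1 and GENCODE M1 transcript lengths less 200 nucleotides, and intervals cover counting error only. RefSeq coordinates on GRCm38 (mm10) are given. Calculations were tested on simulated data. Alternatives were minimum, pseudocount, centring, scaling, GC content and fold. Python 3.11.15, numpy 2.4.6, pandas 2.3.3 and matplotlib 3.10.9 were used.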

Additional observations from a re-analysis of the deposited data

Results flagged for a closer look

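In 3 of the 20 imprinted genes above the minimum, the ratio of 12 to 0.5 kPa was past 1.1-fold in opposite directions in control and in shSrf, which was so for 6.01% of all genes. None of these differences was tested, since each ratio compares 1 library with another. For Igf2 the log2 ratio was -0.33 in control against 0.68 in shSrf, a difference of -1.01. Herc3, the host gene of Nap1l5, had -0.25 and 0.29, a difference of -0.545. Snrpn had 0.29 and -0.15, a difference of 0.443, and its counting intervals were from 0.03 to 0.55 and from -0.28 to -0.02. These intervals do not cover how reads were split between Snrpn and Snurf, which share transcripts. Snurf was at 0.01 in control, within 1.1-fold, and at -0.24 in shSrf. After centring on GC content the ratio of Snrpn in shSrf was -0.12, within 1.1-fold, and at 1.2-fold neither Snrpn nor Herc3 was past the threshold in both populations.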

How the results depend on the processing

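No paired analysis was possible because the conditions had 1 library each and shared no replicate numbers, and for the same reason none could be left out. A fit with stiffness as a block, which would use both stiffnesses as replicates, was not run. Under the alternatives no imprinted gene past its threshold changed sign. Without a minimum and with a pseudocount of 1, all 39 listed members and 21862 genes were compared. Then 5 members (Magel2 and Mkrn3 in addition) were higher in shSrf past 2-fold, where 1.16% of all genes were. At 12 kPa 2 were higher in control and 5 were lower in shSrf, where 12.4% and 8.23% of all genes were. The median log2 ratios were 0.0558 and 0.0385 for shSrf over control and 0.00103 for stiffness in shSrf. With a minimum of 5, 0 members were higher at 12 kPa in control and 1 was lower in shSrf, where 16% and 12.2% of all genes were. The same 3 medians were then 0.109, 0.00275 and 0.031. Ndn, under 5 in control, drops out there. Centring within 50 bins of GC content gave 2 members higher at 12 kPa in control, where 16% of all genes were, and medians of 0.244, 0.45 and -0.00708. Centring on the median or scaling to the 75th percentile gave 5 members lower at 12 kPa in shSrf, where 14% and 14.4% of all genes were. With 1.5-fold, 7 members were higher and 1 was lower in shSrf, where 6.63% and 6.17% of all genes were. With 1.2-fold, 2 were lower at 12 kPa in control and 1 in shSrf. The share of all genes past 1.2-fold was not computed, so the counts at 1.2-fold cannot be set against it. Depth limits the 14 members under an FPKM of 1 in every library.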
